A study of Mus musculus with 36 samples.

Results

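The genes described here are 32 mouse genes of the amino acid stress response that the transcription factor ATF4 runs. They were chosen by name, from a written list, and not by any measured value. Of the 32, 31 were measured among the 18193 genes of the array, and Pycr1, a proline synthesis enzyme, was not analysed here. RNA came from OT-I CD8 T cells, mouse T cells with a transgenic receptor for an ovalbumin peptide, which had received a short hairpin RNA and been transferred into mice with B16 melanomas. The groups carried a hairpin against Ppp2r2d, Egr2, Ptpn2, Arhgap5 or Alk, or the control hairpin against LacZ, a bacterial gene that mouse cells lack. Each of these 6 transductions was measured in cells labelled tumor and in cells labelled spleen, with 3 Affymetrix 3′ arrays for each of the 12 groups, 36 arrays in all. Transfer of OT-I cells into a tumor-bearing host, and a hairpin of some kind, were shared by every group, the LacZ controls included. The labels do not say whether the arrays of a group came from separate mice, pools or wells, so the tests measure the spread between these arrays, which may be technical.

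ATF4 is made when translation initiation is slowed by phosphorylation of the factor eIF2, which kinases such as GCN2 (Eif2ak4) bring about when uncharged tRNA accumulates in an amino acid shortage. ATF4 then pairs with C/EBP factors and binds composite C/EBP-ATF elements in genes for amino acid uptake, serine, asparagine and proline synthesis, mitochondrial one-carbon metabolism and feedback control of the stress itself. In activated T cells the same genes are also induced during growth, through mTORC1 and MYC. ATF4 is controlled to a large part through translation, so the level of its mRNA is not a measure of the protein.

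Promoter windows of 6 members are shown first, to set the known element beside the values that follow. Windows came from RefSeq on GRCm38.p6 and ran from 250 bases before the annotated start to 50 after it, and 26 of the 32 members had at least 1 (Eif4ebp1, Cth, Aldh1l2, Slc7a5, Slc1a5 and Slc38a1 were not matched). The core of the C/EBP-ATF element was searched as TGATGNAA on both strands, where N is any base, and the full cyclic AMP response element as TGACGTCA, which reads the same on both strands; no match of one overlapped a match of the other in the members. The first was in 1304 of 32851 windows of the table (3.97%) and in 9 of the 30 windows of the members (9 of 26 genes). The second was in 588 windows (1.79%) and in 1 window of the members, that of Ppp1r15a. Below, the 250 bases before the start are printed 5′ to 3′ along the gene, with the matched letters in capitals. Asns, Nupr1 and Chac1 are shown because they had the largest falls between the labels, and Vldlr, Ppp1r15a and Slc38a2 because they had the largest rises. Of the 2 windows of Vldlr, the one with a match is shown. The stretches lie at chr6:7693210-7693459 (minus strand) for Asns, chr7:126625471-126625720 (minus strand) for Nupr1, chr2:119350992-119351241 (plus strand) for Chac1, chr19:27216770-27217019 (plus strand) for Vldlr, chr7:45526269-45526518 (minus strand) for Ppp1r15a and chr15:96699729-96699978 (minus strand) for Slc38a2.
Asns: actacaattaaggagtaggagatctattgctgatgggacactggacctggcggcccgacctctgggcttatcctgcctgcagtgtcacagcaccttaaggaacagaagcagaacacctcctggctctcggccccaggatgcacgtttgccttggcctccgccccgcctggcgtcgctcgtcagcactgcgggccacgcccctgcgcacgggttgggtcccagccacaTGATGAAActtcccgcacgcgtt
Nupr1: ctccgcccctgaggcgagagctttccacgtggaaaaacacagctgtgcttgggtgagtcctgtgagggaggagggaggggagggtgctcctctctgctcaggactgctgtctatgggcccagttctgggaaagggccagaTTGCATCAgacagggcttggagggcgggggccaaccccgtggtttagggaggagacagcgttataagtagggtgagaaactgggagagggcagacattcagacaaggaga
Chac1: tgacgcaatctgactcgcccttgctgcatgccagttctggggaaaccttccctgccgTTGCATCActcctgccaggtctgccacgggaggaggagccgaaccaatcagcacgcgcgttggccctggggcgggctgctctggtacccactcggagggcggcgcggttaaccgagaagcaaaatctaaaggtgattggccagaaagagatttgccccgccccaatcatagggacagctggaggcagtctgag
Vldlr: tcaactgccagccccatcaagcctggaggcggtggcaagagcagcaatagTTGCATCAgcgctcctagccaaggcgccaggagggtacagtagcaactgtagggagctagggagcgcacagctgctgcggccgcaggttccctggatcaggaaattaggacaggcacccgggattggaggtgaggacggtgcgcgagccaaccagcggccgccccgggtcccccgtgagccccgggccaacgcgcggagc
Ppp1r15a: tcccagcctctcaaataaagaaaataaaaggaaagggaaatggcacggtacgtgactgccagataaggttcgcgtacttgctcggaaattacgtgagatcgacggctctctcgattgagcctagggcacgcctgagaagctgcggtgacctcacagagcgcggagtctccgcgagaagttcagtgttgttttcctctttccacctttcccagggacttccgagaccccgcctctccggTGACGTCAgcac
Slc38a2: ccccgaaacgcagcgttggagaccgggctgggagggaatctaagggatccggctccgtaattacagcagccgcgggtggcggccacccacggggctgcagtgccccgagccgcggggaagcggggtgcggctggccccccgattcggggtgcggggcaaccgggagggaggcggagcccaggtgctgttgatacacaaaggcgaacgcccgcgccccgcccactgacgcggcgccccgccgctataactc
The match begins 23 bases before the start in Asns, 110 in Nupr1 (read on the opposite strand, as TTGCATCA) 193 in Chac1 and 200 in Vldlr (both also on the opposite strand). The cyclic AMP element of Ppp1r15a begins 12 bases before the start, and Slc38a2 holds neither set of letters in this window. The other members with a match were Slc1a4, where it begins 4 bases before the start and runs across it, Slc7a11 with 2 (66 and 47 bases before), Got1 (102), Pycr1 (103) and Trib3, where it lies after the start. A match is a description of the letters, and binding was not measured.

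Before the members' values, some facts of the arrays bear on every comparison. Values are deposited on a log2 scale, and a gene with several probe sets was read from the one whose mean over all arrays was highest. Levels are therefore given in log2 units, are compared between arrays only, and are never set against those of another gene. A difference of 1 is a 2-fold change. Melanocyte genes were far lower in the arrays labelled tumor: of 12 markers 11 were called lower, and the median of the list lay at -1.83 to -0.70 on the arrays labelled tumor and at 3.16 to 5.27 on those labelled spleen. Macrophage markers did the same, 11 of 12 lower, with medians of -3.004 to -0.955 labelled tumor and 2.01 to 4.56 labelled spleen. B cell markers were higher in 5 of 5, erythroid markers in 3 of 4 with 1 not called, and of 6 markers of stroma and endothelium 3 were higher and 2 lower. The genes Dct, Tyrp1 and Pmel, pigment cell genes that B16 melanomas express, were all lower in the arrays labelled tumor, so these levels go against the labels, and "labelled tumor" and "labelled spleen" are used throughout; each direction given here rests on the labels as deposited. CD8 T cell markers were mixed (2 higher, 1 lower and 6 not called, of 9), with medians of 4.25 to 7.24 on the arrays labelled tumor and 5.74 to 6.86 on those labelled spleen. Cell cycle genes, 14 of 14, were lower in the arrays labelled tumor, with medians of 1.12 to 3.57 against 4.94 to 6.22. In RNA from a mixture, fewer cells of a type and less RNA per cell cannot be told apart, and what part other cells had in the members' differences was not tested.

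Some arrays stood apart. Ptpn2 labelled tumor array 1 had a best correlation with any other array of 0.891, against 0.954 to 0.993 for the other 35, and its Gapdh signal at the 3′ end exceeded that at the 5′ end by 2.94, whereas the excess on those 35 was 0.25 to 1.39. For LacZ labelled spleen the Gapdh 3′ to 5′ difference was 0.83 to 1.39 over 3 arrays, whereas it was 0.25 to 0.83 over 15 arrays of hairpins under that label. Best correlations were 0.954 to 0.971, against 0.982 to 0.991. The Gapdh measure also differed by label, at 0.86 to 2.94 (median 1.05) labelled tumor and 0.25 to 1.39 (median 0.53) labelled spleen. Every array labelled tumor lay above every hairpin array labelled spleen. The part of RNA quality in the differences between the labels was not tested. LacZ labelled spleen array 2, Egr2 labelled tumor array 2 and Ptpn2 labelled tumor array 3 had a lowest value of -1.45, -1.45 and -1.38, whereas the median over arrays was -3.91, so genes near the floor read high on them. The targeted genes were below LacZ on every array in 3 of 10 pairs of target and label (Ppp2r2d, Egr2 and Ptpn2, each labelled spleen), and overlapped with LacZ in the other 7, including every one labelled tumor.

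Averaged over the 6 transductions, most of the amino acid stress genes were lower in the cells labelled tumor than in those labelled spleen. In limma over all 36 arrays, 21 of 31 members were called lower and 6 higher at an adjusted p under 0.05, and 4 were not called. The same fit called 70.7% of all genes, 33.1% lower and 37.6% higher, so that a call by itself is common here and it is the direction and size of the members' differences that are described. Their median difference was -0.92, against 0.13 over all genes. For 7 members (Asns, Nupr1, Eif4ebp1, Phgdh, Psat1, Mthfd2 and Slc1a4) all 18 arrays labelled tumor lay below all 18 labelled spleen, and for none did they lie above; over all genes 6.51% lay below without overlap and 1.35% above.

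**Figure D1:**
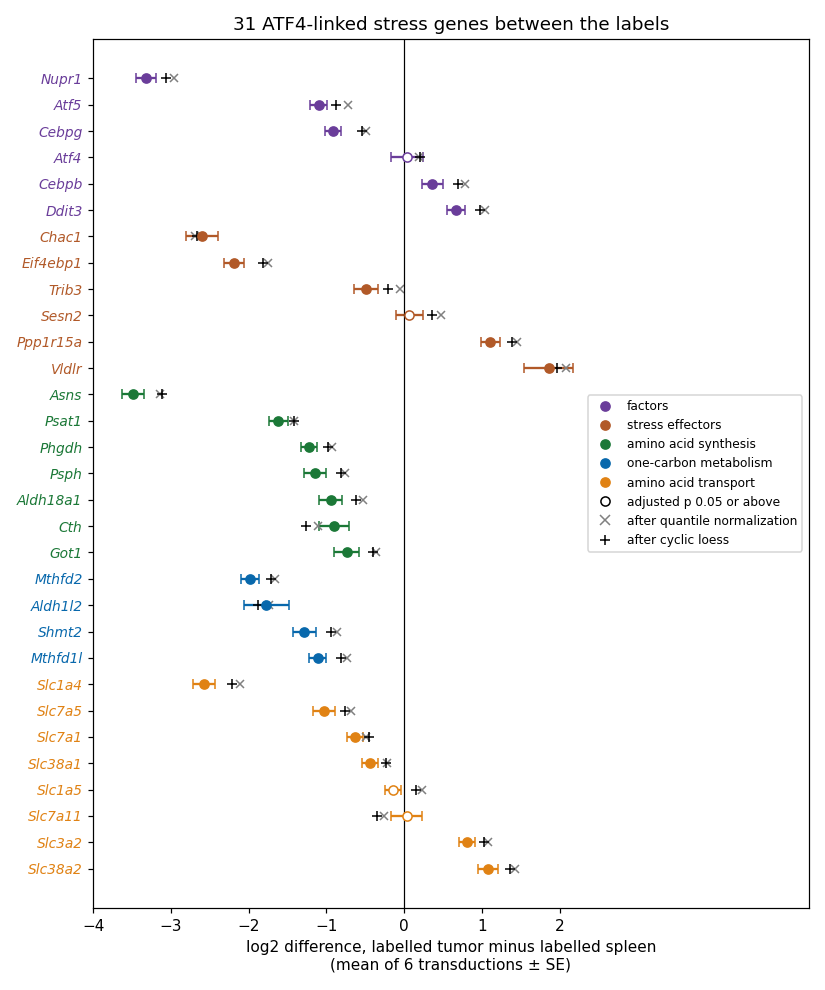
Log2 difference, labelled tumor minus labelled spleen, of 31 members averaged over 6 transductions, as points with their standard errors from limma. Rows are grouped and coloured by role, open points have an adjusted p of 0.05 or above, and crosses give the difference after quantile normalization and cyclic loess. Asns (-3.49) and Nupr1 (-3.32) lie farthest to the left, and Vldlr (1.86) farthest to the right.

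Every measured enzyme of amino acid synthesis was lower in the cells labelled tumor, 7 of 7. Asns, which makes asparagine from aspartate and glutamine and is a standard reporter of ATF4 activity, had the largest fall of all members. Its level was -0.70 at the lowest, 0.82 at the median and 1.57 at the highest over 18 arrays labelled tumor, against 3.57, 4.16 and 4.73 over 18 labelled spleen. Every array labelled tumor lay below every array labelled spleen. The difference was -3.49 ± 0.14 (SE), 11.3-fold lower, with an adjusted p of 4.39e-20 in limma.

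The 3 enzymes of serine synthesis fell together. Phgdh, which takes the first step from glycolysis, ranged over 4.45, 4.80 and 5.42 (lowest, median and highest) labelled tumor and 5.66, 6.01 and 6.52 labelled spleen, a difference of -1.22 ± 0.10. Psat1, the transaminase that follows, ranged over 3.99, 5.08 and 5.86 labelled tumor and 6.16, 6.69 and 7.27 labelled spleen, a difference of -1.62 ± 0.12. Neither gene had overlapping arrays. Psph, the phosphatase that releases serine, ranged over 1.48, 3.39 and 3.97 labelled tumor and 3.77, 4.47 and 4.89 labelled spleen, a difference of -1.15 ± 0.14 with some overlap. The adjusted p of these 3 genes was at most 2.52e-08.

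The other synthesis enzymes had smaller differences. Aldh18a1, which starts proline synthesis from glutamate, differed by -0.95 ± 0.14, and Got1, the cytosolic aspartate transaminase, by -0.74 ± 0.16. Cth, which makes cysteine from cystathionine, differed by -0.91 ± 0.20, but its levels of -3.73 to -0.09 over all arrays lie near the floor of the array. All 3 overlapped between the labels.

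All 4 members in one-carbon metabolism were called lower. Mthfd2, the mitochondrial enzyme that oxidises methylene-tetrahydrofolate, ranged over 3.26, 4.01 and 4.50 labelled tumor and 5.55, 5.92 and 6.58 labelled spleen. No array labelled tumor reached any labelled spleen, and the difference was -1.99 ± 0.12, 3.96-fold lower (adjusted p 8.34e-16, limma). Shmt2, which moves a carbon from serine to folate in mitochondria, ranged over 2.75, 3.26 and 3.90 labelled tumor and 3.46, 4.59 and 5.51 labelled spleen, a difference of -1.29 ± 0.15. Mthfd1l, which releases formate, ranged over 3.24, 4.09 and 4.90 labelled tumor and 4.82, 5.14 and 5.66 labelled spleen, a difference of -1.11 ± 0.11. Both overlapped slightly between the labels. Aldh1l2, the mitochondrial formyl-tetrahydrofolate dehydrogenase, ranged over -3.42, -2.21 and 3.26 labelled tumor and -1.22, -0.29 and 1.08 labelled spleen, a difference of -1.78 ± 0.29. The value of 3.26 was that of Ptpn2 labelled tumor array 1, and no other array labelled tumor exceeded -0.75.

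The amino acid transporters split. Slc1a4, which exchanges small neutral amino acids, fell most: it ranged over -0.31, 0.71 and 1.55 labelled tumor and 2.51, 3.10 and 4.04 labelled spleen, without overlap, a difference of -2.57 ± 0.14 (5.94-fold lower, adjusted p 2.24e-16, limma). The other 2 probe sets of Slc1a4 were called lower too, but at -1.63 and -0.985, so the size of this fall rests on the probe set used. Slc7a5, the light chain of the large neutral amino acid transporter LAT1, ranged over 3.40, 4.64 and 5.16 labelled tumor and 4.99, 5.53 and 6.19 labelled spleen, a difference of -1.03 ± 0.14. Slc7a1, a cationic amino acid transporter, differed by -0.63 ± 0.11 (1 of its other 2 probe sets, at -0.26, was not called, adjusted p 0.19), and Slc38a1, a sodium-coupled glutamine transporter, by -0.44 ± 0.10. These 4 members were called lower.

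A pair of transporters moved the other way. Slc38a2, a sodium-coupled transporter of small neutral amino acids known to respond to amino acid shortage, ranged over 4.16, 5.39 and 5.79 labelled tumor and 3.44, 4.33 and 4.75 labelled spleen. Its difference was 1.08 ± 0.13, 2.11-fold higher, and the other 2 probe sets of the gene gave 0.95 and 0.98. Slc3a2, the heavy chain (CD98) with which Slc7a5 and Slc7a11 must pair to reach the membrane, ranged over 5.69, 6.27 and 6.69 labelled tumor and 4.86, 5.32 and 5.82 labelled spleen, a difference of 0.81 ± 0.10. The heavy chain was thus higher where its partner Slc7a5 was lower, in the same arrays. Slc1a5, a glutamine transporter (-0.15 ± 0.10, adjusted p 0.198), and Slc7a11, the cystine transporter (0.03 ± 0.20, adjusted p 0.895), were not called. After cyclic loess Slc7a11 was called lower (-0.36, adjusted p 0.0426). For Slc1a5 the sign depended on the scaling and the probe set, at 0.23 after quantile normalization, 0.15 after cyclic loess and 0.64 with the gene's other probe set (each called higher), while it was called lower with array weights (-0.195, adjusted p 0.0276) and without Egr2 labelled tumor array 2 (-0.207, adjusted p 0.0338).

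The factors of the response did not all move as its enzymes did: of 6, 3 were called lower, 2 higher and 1 was not called. Atf4 mRNA lay at 3.14, 6.57 and 7.39 labelled tumor and 5.96, 6.43 and 6.82 labelled spleen, a difference of 0.04 ± 0.20 (adjusted p 0.873, limma). The value of 3.14 was that of Ptpn2 labelled tumor array 1, and without it the difference was 0.24, with an adjusted p of 0.0434. Of the other 2 probe sets of Atf4, 1 was called higher (0.39, adjusted p 0.00669) and 1 was not called (-0.075, adjusted p 0.641). The C/EBP partners differed in direction. Cebpg fell (-0.92 ± 0.11), although 1 of its other 2 probe sets gave 1.05, and Cebpb rose (0.36 ± 0.14, adjusted p 0.0223), a call that its other probe set did not give (0.14, adjusted p 0.361). Ddit3, which encodes the pro-apoptotic factor CHOP, rose by 0.66 ± 0.11, but its other probe set was not called (0.27, adjusted p 0.178). Atf5, a relative of ATF4 whose translation responds to the same signal, ranged over -0.79, -0.08 and 0.72 labelled tumor and 0.02, 1.06 and 1.68 labelled spleen, a difference of -1.10 ± 0.11. Nupr1, a small chromatin-associated stress factor, ranged over -2.21, -0.62 and 0.53 labelled tumor and 1.07, 2.78 and 3.37 labelled spleen. Its arrays did not overlap, and the difference of -3.32 ± 0.13 was a 9.97-fold fall (adjusted p 1.66e-20, limma). The other probe set of Nupr1 was called lower too, with a smaller difference of -2.36.

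The stress effectors were split as well. Chac1, a glutathione-degrading enzyme, ranged over -3.01, -2.38 and -0.99 labelled tumor and -1.94, 0.54 and 2.80 labelled spleen, a difference of -2.60 ± 0.21 (6.08-fold lower), with the lower values near the floor of the arrays. Eif4ebp1, an inhibitor of cap-dependent translation, ranged over 0.76, 1.35 and 2.00 labelled tumor and 2.75, 3.57 and 4.07 labelled spleen, without overlap, a difference of -2.19 ± 0.13 (4.56-fold lower). The other probe sets of Eif4ebp1 were called lower too, at -2.25 and -0.59. Trib3, a pseudokinase that inhibits ATF4, differed by -0.49 ± 0.16, a call that was lost after quantile normalization (-0.05, adjusted p 0.803) and cyclic loess (-0.21, adjusted p 0.233). Ppp1r15a, which encodes GADD34 and directs the phosphatase that reverses eIF2 phosphorylation, ranged over 4.58, 5.39 and 6.17 labelled tumor and 3.67, 4.41 and 4.74 labelled spleen. It was 2.15-fold higher (1.11 ± 0.13, adjusted p 3.76e-09, limma), and the labels overlapped. Vldlr, the very low density lipoprotein receptor, ranged over -2.49, 0.76 and 3.00 labelled tumor and -3.09, -1.26 and 0.69 labelled spleen, a difference of 1.86 ± 0.31. The other probe sets of Vldlr were called higher too, but gave smaller differences of 0.95, 0.53, 1.04, 0.94 and 0.78. Their mean levels over all arrays were as low as -2.88. The place of Vldlr as the largest rise thus rests on the probe set used. Sesn2, an inhibitor of mTORC1 signalling in leucine shortage, was not called (0.07 ± 0.17, adjusted p 0.734). It was called higher after quantile normalization (0.48, adjusted p 0.0489) and without Ptpn2 labelled tumor array 1 (0.23, adjusted p 0.0463), and its other probe set was called lower (-0.51, adjusted p 0.000847).

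**Figure D2:**
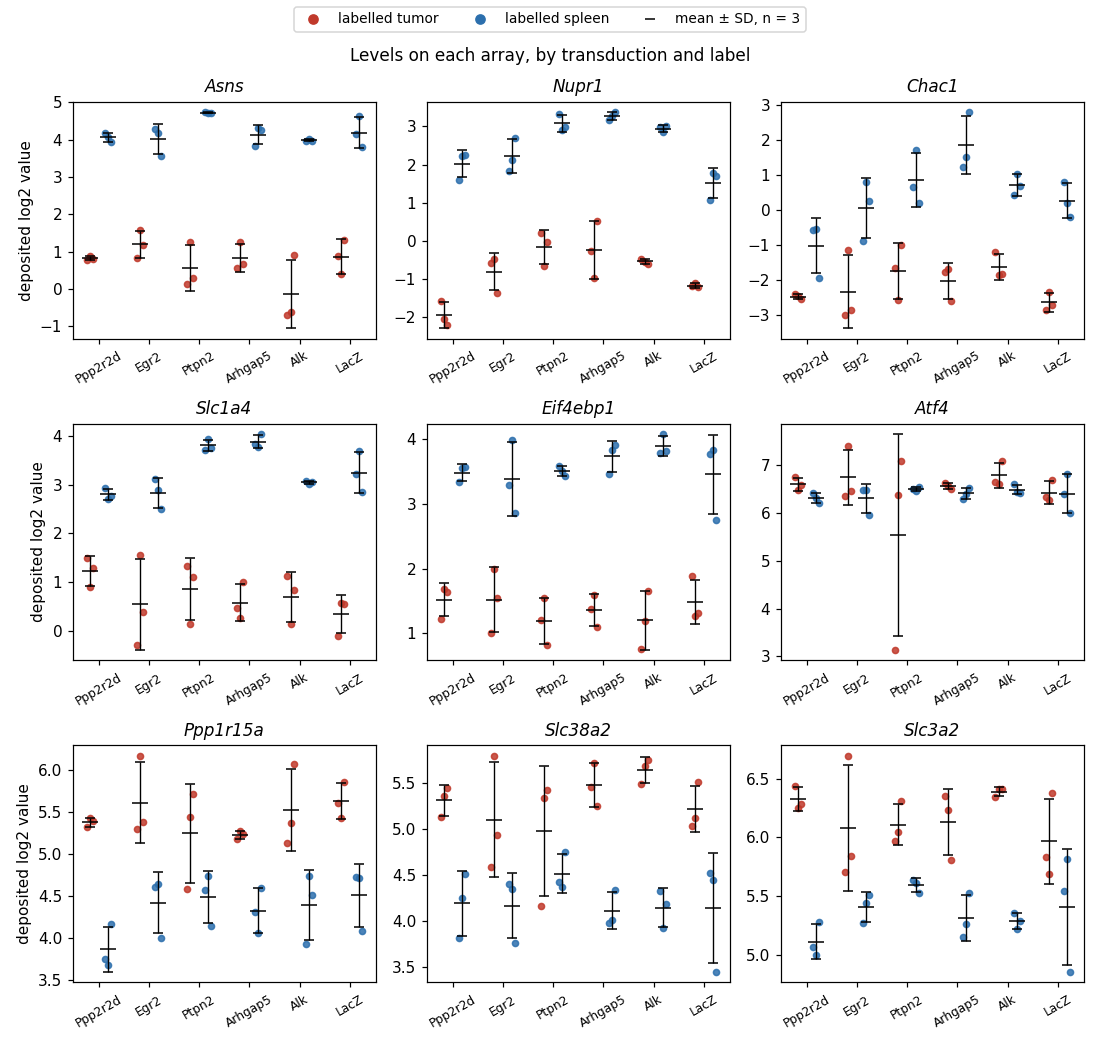
Deposited log2 values of 9 members on each of 36 arrays, by transduction, with arrays labelled tumor to the left of those labelled spleen and bars for the mean ± SD of 3 arrays. Asns, Nupr1, Slc1a4 and Eif4ebp1 separate completely by label, and Ppp1r15a, Slc38a2 and Slc3a2 lie higher in the arrays labelled tumor. Atf4 overlaps between the labels, with 1 Ptpn2 array labelled tumor at 3.14.

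The core of the C/EBP-ATF element was then set beside the calls. Among members with a window, it was in 6 of 16 called lower, 1 of 6 called higher and 1 of 3 not called. The 3 largest falls without overlap, in Asns, Nupr1 and Slc1a4, were in genes with a match, though the place of Slc1a4 rests on the probe set used. Eif4ebp1, the next (-2.19), had no window to search. Mthfd2, Psat1 and Phgdh had no match in their windows. No test was made of these counts.

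Within single transductions, 25 of 31 members kept 1 direction throughout: 20 were lower and 5 (Ddit3, Ppp1r15a, Vldlr, Slc3a2 and Slc38a2) higher in all 6 transductions. The other 6 (Atf4, Cebpb, Trib3, Sesn2, Slc7a11 and Slc1a5) changed sign between them. Cebpb, higher on average, was lower with Ptpn2 (-0.64) and Alk (-0.44), and Trib3, lower on average, was 0.11 with Egr2. Asns, Nupr1, Chac1, Eif4ebp1, Phgdh, Psat1, Mthfd2, Mthfd1l and Slc1a4 (9 members) were called lower in all 6, and Ppp1r15a higher in all 6. Atf4, Sesn2 and Slc1a5 were called in none. The share of all genes that kept 1 direction, or were called, in all 6 transductions was not counted. Whether these counts of members are unusual therefore cannot be said. Members called, as higher and lower, were 5 and 13 with the Ppp2r2d hairpin, 3 and 12 with Egr2, 3 and 17 with Ptpn2, 4 and 15 with Arhgap5, 4 and 16 with Alk and 3 and 18 with LacZ. The share of all genes called in the same comparisons was 22.6% for Ppp2r2d (8.1% higher, 14.5% lower), 26.4% for Egr2 (10.5% and 15.9%), 49.2% for Ptpn2 (24.1% and 25.1%), 32.3% for Arhgap5 (10.7% and 21.6%), 53.2% for Alk (33.2% and 20%) and 25.2% for LacZ (6.31% and 18.9%). In LacZ the median of all genes was -0.48 as deposited and 0.05 after quantile normalization, and the split of all calls was 2902 higher and 2629 lower after it, against 1148 and 3441 as deposited. After quantile normalization all genes also split more evenly for Ppp2r2d (3083 higher, 2965 lower), Egr2 (3160 and 3053) and Arhgap5 (3846 and 3303), against 1474 and 2633, 1910 and 2891, and 1945 and 3933 as deposited. The members then stood, as higher and lower, at 6 and 13 for Ppp2r2d, 5 and 15 for Egr2, 5 and 15 for Ptpn2, 7 and 15 for Arhgap5, 5 and 18 for Alk and 4 and 16 for LacZ.

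The difference of Asns was -3.24 with the Ppp2r2d hairpin, -2.82 with Egr2, -4.16 with Ptpn2, -3.30 with Arhgap5, -4.12 with Alk and -3.32 with LacZ, each with an SE of 0.34. That of Nupr1 lay between -3.96 with Ppp2r2d and -2.69 with LacZ, and that of Chac1 between -3.88 with Arhgap5 and -1.46 with Ppp2r2d. Vldlr was the member whose difference varied most: it was called higher with Ptpn2 (3.44 ± 0.76), Arhgap5 (3.39 ± 0.76) and Alk (2.89 ± 0.76), and was 0.55 with Ppp2r2d, 0.59 with Egr2 and 0.27 with LacZ, where it was not called. Got1 was called with Ptpn2 (-1.70) and Alk (-0.95) and was -0.06 with Ppp2r2d.

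**Figure D3:**
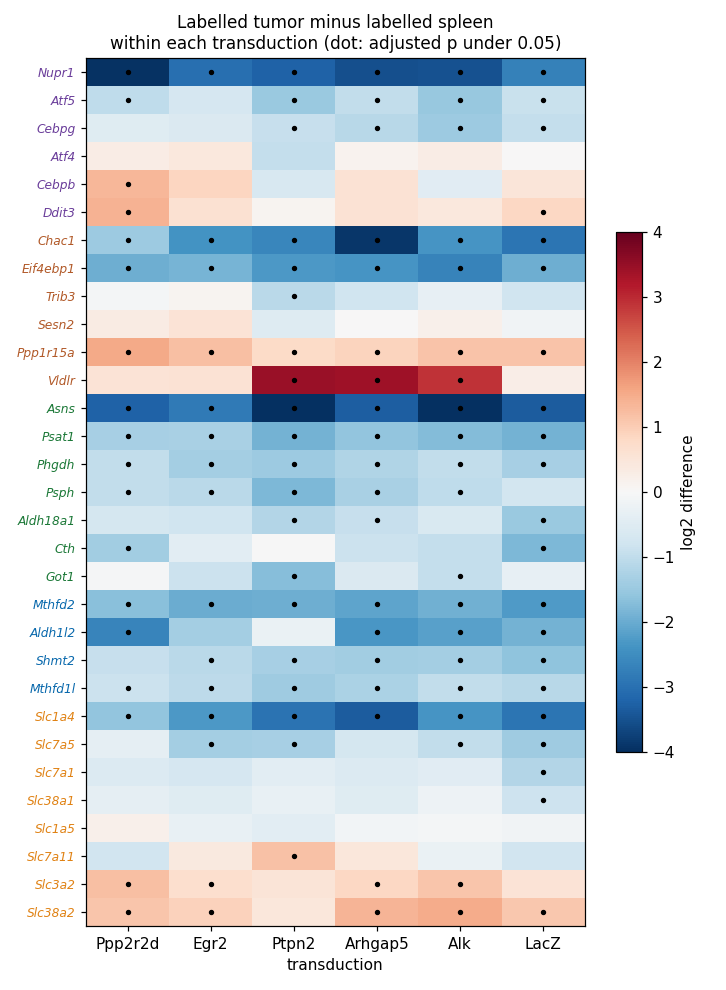
Log2 difference, labelled tumor minus labelled spleen, of 31 members (rows, names coloured by role) in each of 6 transductions (columns), as colour from blue (lower labelled tumor) to red (higher). Dots mark an adjusted p under 0.05 in limma. Asns, Nupr1, Chac1, Slc1a4 and Eif4ebp1 are blue with a dot in every column, and Ppp1r15a is red with a dot in every column.

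The hairpins were then set against LacZ within a label. In the arrays labelled tumor no member was called for any of the 5 hairpins in limma. At an unadjusted p under 0.05 there were 6 members for Ppp2r2d, 0 for Egr2, 3 for Ptpn2, 3 for Arhgap5 and 4 for Alk, and the smallest adjusted p values of the members were 0.113, 0.771, 0.0938, 0.502 and 0.123 in the same order. Few genes of any kind were called there: 0.995%, 0.0275%, 0.764%, 0.368% and 0.0055% of all genes. The 5 comparisons share the 3 LacZ arrays, and in simulated data the Ppp2r2d comparison recovered 35 of 50 differences of 2 log2 units and 5 of 50 of 1, so most differences of 1 log2 unit would be missed with 3 arrays a group.

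In the arrays labelled spleen 7 pairs of member and hairpin were called, all higher than LacZ. Nupr1 accounted for 3 of them. Its values were 3.33, 2.92 and 2.99 with Ptpn2, 3.17, 3.28 and 3.37 with Arhgap5 and 2.98, 2.84 and 3.01 with Alk, against 1.07, 1.79 and 1.70 with LacZ. Every array of these 3 hairpins lay above every LacZ array. These pairs are described because they were called on the same arrays, so this separation adds no support. The share of all genes separated in this way was not counted. The differences were 1.56 ± 0.31 for Ptpn2 (adjusted p 0.00317), 1.75 ± 0.31 for Arhgap5 (0.000995) and 1.42 ± 0.31 for Alk (0.00632), each from limma, and they were called in all 46 settings tried (the main one and its alternatives). With Ppp2r2d (1.61, 2.22 and 2.25) and Egr2 (1.84, 2.13 and 2.71) Nupr1 was not called against LacZ. The macrophage medians of the same arrays were 2.49 to 3.39 for Ptpn2, 2.39 to 3.59 for Arhgap5 and 3.81 to 4.56 for Alk, against 2.01 to 2.43 for LacZ. The melanocyte medians were 4.38 to 5.09 for Ptpn2, 3.99 to 4.09 for Arhgap5 and 4.895 to 5.27 for Alk, against 3.16 to 3.94 for LacZ, without overlap. With Egr2, where Nupr1 was not called, macrophage medians were 2.69 to 3.47, above every LacZ array, and melanocyte medians 3.53 to 4.42. With Ppp2r2d, where it was not called either, they were 2.06 to 2.55 and 3.65 to 4.19. The part of either cell type in the Nupr1 differences was not tested.

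The remaining 4 calls were less firm. With Ptpn2, Atf5 was 1.62, 1.68 and 1.40, against 1.02, 0.65 and 0.02 with LacZ, a difference of 1.00 ± 0.27 (adjusted p 0.0175, limma). Ddit3 was 4.31, 4.60 and 4.35 with Ptpn2, against 3.32, 4.01 and 3.03 with LacZ, a difference of 0.96 ± 0.28 (adjusted p 0.0266). Got1 was 4.73, 4.72 and 5.03 with Ptpn2, against 3.53, 4.00 and 3.37 with LacZ, a difference of 1.20 ± 0.38 (adjusted p 0.0443). For these 3 genes the groups did not overlap, which adds nothing to calls made on the same arrays. With Arhgap5, Chac1 was 1.25, 1.53 and 2.80, against 0.81, 0.21 and -0.20 with LacZ, a difference of 1.59 ± 0.50 (adjusted p 0.0444), again without overlap. Out of 46 settings, Atf5 was called in 41, Ddit3 in 38, Chac1 in 30 and Got1 in 29. Leaving out a single array was enough to lose each of the 4. Atf5 was lost without LacZ array 3 or Ptpn2 array 1 or 2 (adjusted p up to 0.0791), and Ddit3 without LacZ array 1 or 3 or any Ptpn2 array (up to 0.0898). Got1 was lost without any array of LacZ or Ptpn2 (up to 0.137), and Chac1 without LacZ array 2 or 3 or Arhgap5 array 2 or 3 (up to 0.225), and both also without some arrays of groups not compared. The shares of all genes called were 12.8% for Ppp2r2d, 3.23% for Egr2, 9.58% for Ptpn2 (3.37% higher), 8.89% for Arhgap5 (3.03% higher) and 7.4% for Alk (3.63% higher). The LacZ arrays labelled spleen are those that stood apart in RNA quality from the hairpin arrays of that label. After quantile normalization all calls split as 639 higher and 397 lower for Ptpn2, 878 and 614 for Arhgap5 and 898 and 487 for Alk, against 614 and 1129, 551 and 1066, and 661 and 686 as deposited. The members called were then 3, 3 and 4, all higher, and 2 lower for Ppp2r2d.

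**Figure D4:**
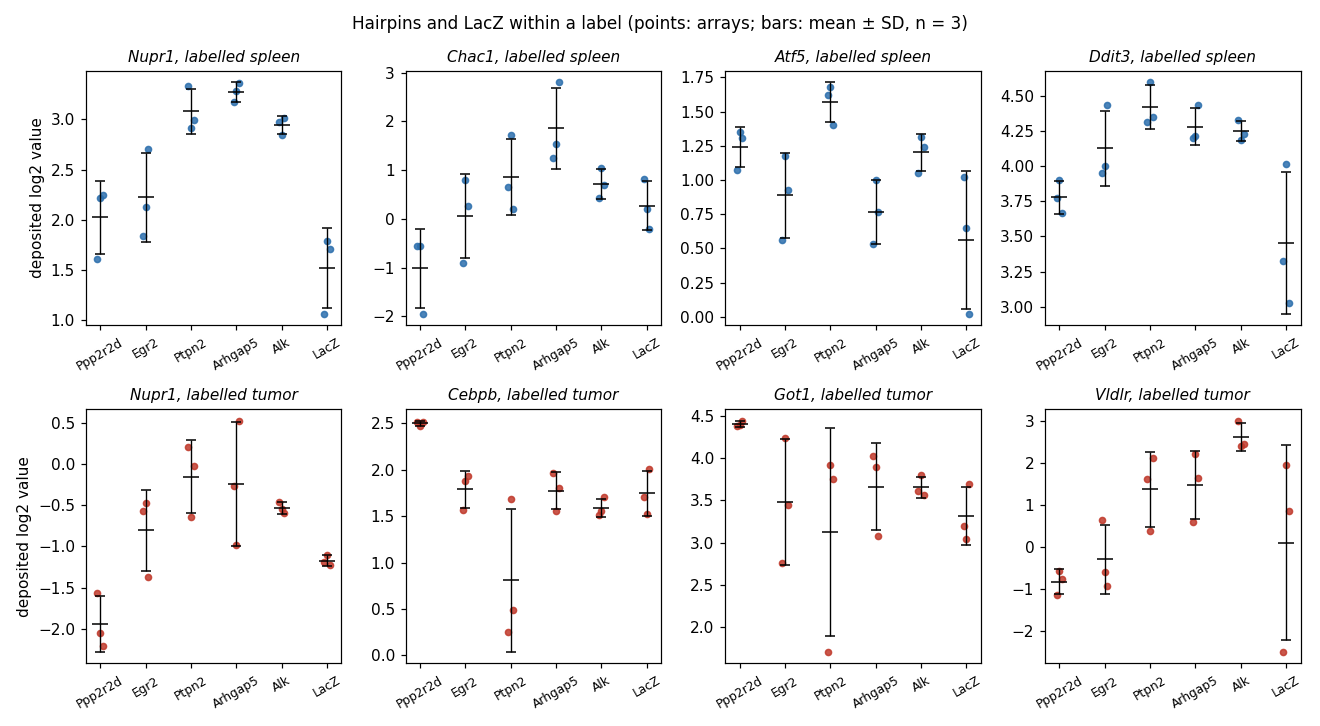
Deposited log2 values by hairpin, with LacZ at the right, for 4 members in the arrays labelled spleen (top) and 4 in those labelled tumor (bottom); points are arrays and bars the mean ± SD of 3. In the arrays labelled spleen Nupr1 lies between 2.84 and 3.37 with Ptpn2, Arhgap5 and Alk and between 1.07 and 1.79 with LacZ, and in those labelled tumor the 3 Ppp2r2d arrays are the lowest for Nupr1 and the highest for Cebpb and Got1.

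A second set of comparisons left the LacZ arrays out and set each hairpin against the mean of the other 4 under the same label. The Ppp2r2d hairpin differed in 7 members in the arrays labelled tumor, where 30.4% of all genes were called (7.66% higher and 22.7% lower), and 7 of 31 is not above that background. Nupr1 was lower, at -1.56, -2.05 and -2.21 with Ppp2r2d, against -1.37, -0.51 and 0.53 (lowest, median and highest of 12 arrays) with the other hairpins, a difference of -1.51 ± 0.25 (adjusted p 0.000318, limma). The arrays did not overlap, and the call was made in all 46 settings. The LacZ arrays labelled tumor, which this comparison leaves out, were at -1.19, -1.10 and -1.22 for Nupr1. Against them Nupr1 was not called with Ppp2r2d. Cebpb was higher, at 2.52, 2.47 and 2.52, against 0.25, 1.62 and 1.96 (1.01 ± 0.27), and Got1 was higher, at 4.38, 4.39 and 4.44, against 1.71, 3.68 and 4.24 (0.92 ± 0.30). Neither overlapped. Nupr1, Cebpb and Got1 are named because they were called on these same arrays, so their separation adds no support. The calls of Cebpb and Got1 were lost after quantile normalization (adjusted p 0.0876 for Cebpb and 0.0913 for Got1) and cyclic loess (0.107 and 0.0982). Without Ppp2r2d array 1 or 3 Cebpb was not called (adjusted p 0.0546 and 0.0627), nor was Got1 without array 1, 2 or 3 (0.0861, 0.0775 and 0.107).

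Slc7a11, Cth and Aldh1l2 with Ppp2r2d lay near the floor of the arrays, and Vldlr lay above it. Slc7a11 was -3.21, -3.15 and -3.42 with Ppp2r2d, against -2.84, -1.80 and -0.80 with the others (-1.52 ± 0.39). Cth was -3.73, -3.11 and -3.60 with Ppp2r2d, against -3.54, -1.92 and -1.08 (-1.35 ± 0.38). Aldh1l2 was -2.96, -2.72 and -3.42 with Ppp2r2d, against -2.93, -1.84 and 3.26 (-1.51 ± 0.56). Vldlr was -1.15, -0.56 and -0.75 with Ppp2r2d, against -0.91, 1.62 and 3.00 (-2.11 ± 0.60). Without Ppp2r2d array 3 none of these 4 was called (adjusted p 0.0604 for Slc7a11, 0.0791 for Cth, 0.17 for Aldh1l2 and 0.0691 for Vldlr), and without array 1 only Slc7a11 was. Aldh1l2 was also lost without Ppp2r2d array 2 (0.0824), Egr2 array 2 (0.0562), Arhgap5 array 2 (0.0574) or Alk array 1 (0.0589). Cth, Aldh1l2 and Vldlr overlapped, and several of the arrays of the other hairpins had high lowest values, Alk arrays 1 to 3 (-1.88, -2.37 and -2.31) among them. After quantile normalization 2 members were lower and none higher for Ppp2r2d, and the split of all calls was 925 higher and 851 lower, against 1394 and 4135 as deposited.

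The Ptpn2 hairpin labelled tumor differed from the other hairpins in 2 members, with 4.56% of all genes called (1.96% higher, 2.59% lower), in a group that holds 2 of the arrays that stood apart (1 and 3). Aldh1l2 was 3.26, -2.28 and -0.75 with Ptpn2, against -3.42, -2.40 and -1.12 with the others (2.37 ± 0.56), and without array 1 it was not called (adjusted p 0.853). Cebpb was 0.25, 1.69 and 0.49 with Ptpn2, against 1.52, 1.84 and 2.52 (-1.11 ± 0.27), and this call was lost without array 1 (-0.83, adjusted p 0.48), without array 3 (-0.95, adjusted p 0.0515) and with array weights (-1.05, adjusted p 0.798). No member was called for Egr2, Arhgap5 or Alk labelled tumor, where 2, 1 and 4 members had an unadjusted p under 0.05 in limma and 0.055%, 0.753% and 0.412% of all genes were called.

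In the arrays labelled spleen Chac1 was called for a pair of hairpins. It was -0.56, -0.55 and -1.94 with Ppp2r2d, against -0.90, 0.74 and 2.80 with the other hairpins, a difference of -1.89 ± 0.40 (adjusted p 0.00297, limma). It was 1.25, 1.53 and 2.80 with Arhgap5, against -1.94, 0.35 and 1.73, a difference of 1.70 ± 0.40 (adjusted p 0.0208). Both sets overlapped. Chac1 was not called for Ppp2r2d without its array 3 (-1.43, adjusted p 0.11), nor for Arhgap5 without its array 2 (1.87, adjusted p 0.0748) or 3 (1.23, adjusted p 0.574). Nupr1 was lower with Ppp2r2d, at 1.61, 2.22 and 2.25, against 1.84, 2.98 and 3.37, a difference of -0.86 ± 0.25 (adjusted p 0.0419) that was called in 30 of 46 settings and was lost without any 1 of the 3 Ppp2r2d arrays (adjusted p 0.413, 0.113 and 0.0918). The shares of all genes called were 4.19% for Ppp2r2d (1.74% lower) and 1.18% for Arhgap5 (0.506% higher). No member was called for Egr2, Ptpn2 or Alk, where 2, 4 and 4 members had an unadjusted p under 0.05 in limma and 0.28%, 1.05% and 1.34% of all genes were called. These 5 comparisons share arrays, so they are not independent of each other.

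Whether a hairpin changed the difference between the labels was tested as an interaction with LacZ. For Ptpn2, 2 members were called, Vldlr (3.17 ± 1.07, adjusted p 0.0424) and Slc7a11 (1.94 ± 0.69, adjusted p 0.0493), with 17.3% of all genes called (15.1% higher). A count of 2 of 31 is not above that background. Vldlr was 1.62, 0.38 and 2.11 labelled tumor and -2.93, -1.77 and -1.52 labelled spleen with Ptpn2, against -2.49, 1.95 and 0.87 labelled tumor and -0.76, -0.42 and 0.69 labelled spleen with LacZ. Slc7a11 was -0.80, -2.84 and -0.99 labelled tumor and -3.11, -2.33 and -2.66 labelled spleen with Ptpn2, against -3.86, -1.84 and -1.88 labelled tumor and -2.59, -1.04 and -1.60 labelled spleen with LacZ. Slc7a11 was called in 9 of 45 settings and Vldlr in 31 of 46. Without LacZ labelled tumor array 1 the interaction was 1.87 for Vldlr (adjusted p 0.179) and 1.28 for Slc7a11 (0.193). Vldlr was also lost without LacZ labelled tumor array 3, LacZ labelled spleen array 2 or 3, Ptpn2 labelled tumor array 1 or 3 or any Ptpn2 labelled spleen array (adjusted p up to 0.114). After quantile normalization neither was called (adjusted p 0.878 and 0.206), and all calls split as 197 higher and 230 lower, against 2747 and 404 as deposited. No member was called for Ppp2r2d, Egr2, Arhgap5 or Alk, where 3, 0, 1 and 1 members had an unadjusted p under 0.05 in limma and 0.786%, 0%, 2.82% and 25.4% of all genes were called. Vldlr was nonetheless not particular to Ptpn2. Its interaction was 3.12 ± 1.07 with Arhgap5 (adjusted p 0.0993, limma) and 2.62 ± 1.07 with Alk (0.0715), against 0.28 with Ppp2r2d and 0.32 with Egr2. All these interactions share the LacZ arrays. Asns and Nupr1 were not among the interaction calls of any hairpin.

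Neighbouring parts of the pathway were counted from lists of other genes. The cytosolic aminoacyl-tRNA synthetases, which charge tRNA with amino acids and many of which are ATF4 targets, were lower in the cells labelled tumor in 18 of 18 (median -0.98). Cars (-1.63), Eprs (-1.54), Yars (-1.30) and Iars (-1.25) fell most, for cysteine, glutamate with proline, tyrosine and isoleucine. Of 14 other genes of folate one-carbon metabolism, purine synthesis and the glycine cleavage system, 11 were lower and 3 higher (median -1.24), with Mthfs (0.78), Aldh1l1 (0.77) and Mthfd2l (0.48) the higher ones and Gldc, the glycine decarboxylase, at -6.19, Tyms, thymidylate synthase, at -2.02, Pfas at -1.75 and Ppat at -1.48, the last 2 being purine synthesis enzymes. Of 14 components of eIF2 signalling 9 were lower and 1 higher (median -0.41): Eif2b3 (-1.20) and Eif2b5 (-0.79), subunits of the exchange factor, and the kinase gene Eif2ak4 (-0.87) fell, and Impact, whose product restrains GCN2, rose (0.98).

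Other transporters were mixed, as the member transporters were. Of 17, 7 were lower and 6 higher (median 0.24): Slc6a9, a glycine transporter, was at -2.07, Slc7a7 at -1.82, Slc36a4 at -1.75 and Slc7a8 at -1.42, the last 3 carrying cationic or neutral amino acids. Among those called higher, Slc38a9 (1.39), Slc43a2 (1.24) and Slc36a1 (1.02) rose most. Of 14 other targets of the stress response 8 were lower and 1 higher (median -0.84): Hmox1, heme oxygenase, at -3.96, Jdp2, a bZIP factor, at -3.11, Cars, which the synthetase list also holds, at -1.63, and Xpot, the tRNA exporter, at -1.42. Of 12 genes of Myc and growth 8 were lower and none higher (median -0.55), with the hexokinase Hk2 at -1.97, the spermidine synthase Srm at -1.49, the ribosome assembly factor Bop1 at -0.81 and the transcription factor Tfap4 at -0.77, while Myc itself was not called (0.20, adjusted p 0.195). Eif2s1, Dars, Mars, Amt and Gdf15 were not analysed here. These counts stand beside the 33.1% of all genes that were lower and the 37.6% that were higher.

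**Figure D5:**
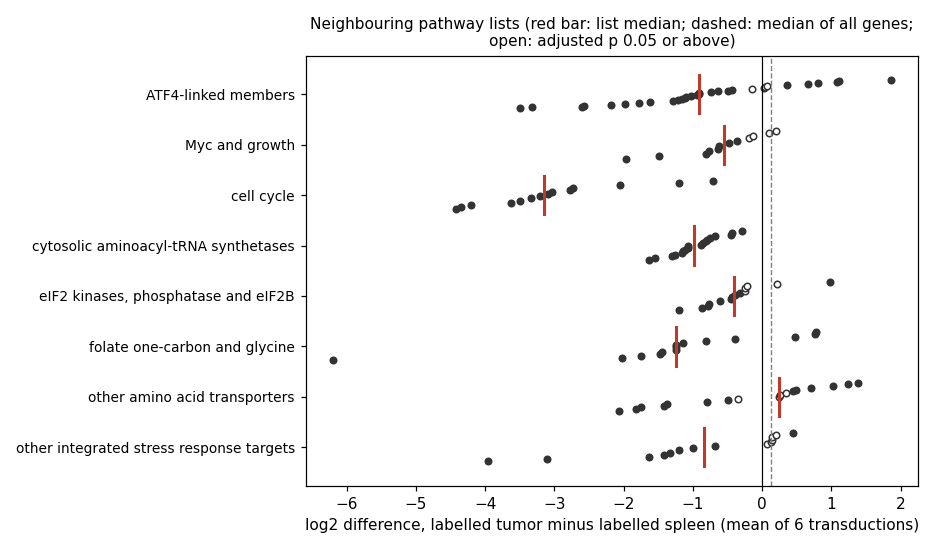
Log2 difference, labelled tumor minus labelled spleen and averaged over 6 transductions, of the 31 members and of 7 lists of other genes, 1 point per gene; red bars are list medians, the dashed line is the median of all genes (0.13), and open points have an adjusted p of 0.05 or above. All 18 synthetases and all 14 cell cycle genes lie left of 0, and the point at -6.19 is Gldc.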

How the data were processed

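The data were 36 single-channel Affymetrix mouse 3′ expression arrays of biotin-labelled total RNA. The deposited values are log2 expression, made by the authors with RMA per the submitters' processing notes; the sources used here do not give its version, settings or centring, and array medians lay between -0.48 and -0.23. The table holds 45101 probe sets: 34945 name a single gene, 932 name several, 9160 have no entry and 64 are controls. They give 18193 genes, each read from its probe set of highest mean (21 of 31 members had several).

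Differences were fitted with limma 3.58.1 in R 4.3.3, with 1 coefficient per group over all arrays (24 residual and 6.75 prior degrees of freedom). The threshold in each of 32 comparisons was a two-sided p under 0.05 after Benjamini-Hochberg adjustment across the 18193 genes. Tested on simulated data, the averaged comparison recovered 49 of 50 differences of 1 log2 unit. The labels do not say whether arrays of the same replicate number are paired. Their residual correlation was -0.24 to 0.24 in 18 pairs, above 0.1 in 4, and they were fitted as unpaired. With 3 arrays a group these correlations cannot exclude a pairing. The replicate block was a term shared by all transductions, so pairing within a transduction was not fitted. All members were named, with ranges over arrays for those called with a difference of at least 1 or in a hairpin comparison; of each other list up to 4 called genes with the largest difference were named. In the folate and transporter lists, genes called higher were named as well. The members, lists and comparisons were chosen with earlier results of these data known, so no count is independent support. The number of arrays limits the precision. Alternatives were other probe sets, a filter, quantile normalization, cyclic loess, array weights (estimated gene by gene), the replicate block, fits with fewer arrays and a threshold of 1; leaving out the 3 arrays with a high lowest value was added after the data were seen.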

Additional observations from a re-analysis of the deposited data

Results flagged for a closer look

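The interaction term, which sets the difference between the labels with the Ptpn2 hairpin against that with LacZ, was called for 2 of 31 members. In the same comparison 17.3% of all genes were called, so this count is not above the background. Vldlr, the very low density lipoprotein receptor, had an interaction of 3.17 ± 1.07 log2 units (adjusted p 0.0424, limma), higher labelled tumor in the Ptpn2 group by 3.44 and in the LacZ group by 0.27. With Arhgap5 (3.12 ± 1.07, adjusted p 0.0993, limma) and Alk (2.62 ± 1.07, adjusted p 0.0715, limma) the Vldlr interaction was of similar size but not called. Slc7a11, the cystine transporter, had 1.94 ± 0.69 (adjusted p 0.0493, limma), with differences of 1.16 with Ptpn2 and -0.78 with LacZ. Slc7a11 lay near the lowest values of the arrays, and Vldlr labelled tumor with Ptpn2 lay above them (1.62, 0.38 and 2.11). Ptpn2 labelled tumor array 3 and LacZ labelled spleen array 2 had high lowest values (-1.38 and -1.45). Without LacZ labelled tumor array 1 the interaction was 1.87 for Vldlr (adjusted p 0.179) and 1.28 for Slc7a11 (0.193), and neither was called. Vldlr was called in 31 of 46 settings and Slc7a11 in 9 of 45, and the part of the lowest values in either result was not tested.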

How the results depend on the processing

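Of the 27 members called between the labels, 25 kept the call and the direction under 45 other settings, which do not include single other probe sets and the threshold of 1; Trib3 and Cebpb did not, Cebpb missing the threshold when the transduction was a term in place of a group (adjusted p 0.0675). With another probe set Ddit3 (0.27, adjusted p 0.178), Slc7a1 (-0.26, adjusted p 0.19) and Cebpb (0.14, adjusted p 0.361) were not called. Vldlr kept its call with each of its other probe sets, but at 0.53 to 1.04, against 1.86 with the one used. The count of 27 was 27 to 29 when each array was left out in turn, and 17 with a required difference of at least 1. Cyclic loess moved the median of all genes to 0.01, against 0.13 as deposited, and the members stood at 7 higher and 21 lower. Members not called, or read from another probe set, could turn sign: Atf4 was -0.11 without the 3 arrays with a high lowest value, -0.075 and 0.39 with other probe sets (the second called, adjusted p 0.00669) and -0.091 to 0.237 leaving out each array; Sesn2 was -0.041 without those arrays, -0.029 to 0.225 leaving out each array (called at 0.225), 0.48 after quantile normalization (called), -0.22 as the mean of its probe sets and -0.51 with its other one; Slc7a11 was -0.26 after quantile normalization, -0.36 after cyclic loess, -0.013 without those arrays and -0.04 to 0.141 leaving out each array; Slc1a5 was 0.25 as the mean of its probe sets, 0.23 after quantile normalization, 0.15 after cyclic loess and 0.64 with its other probe set, and was called lower with array weights (-0.195) and without Egr2 labelled tumor array 2 (-0.207); Cebpg was 1.05 with another probe set.

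Counts against LacZ labelled tumor (0) were 2 after cyclic loess, 13 with array weights, 3 with only the arrays compared, 6 without the 3 arrays, and 0 to 5 leaving out each array. Against LacZ labelled spleen (7) they were 12 after quantile normalization, 13 after cyclic loess, 4 with only the arrays compared, and 3 to 10 leaving out each array (3 without Ptpn2 labelled spleen array 1, 4 without array 2). Against the other hairpins labelled tumor (9) they were 20 with array weights, 5 with only the arrays compared, 22 without the 3 arrays, and 3 to 15 leaving out each array (3 and 4 without Ppp2r2d arrays 3 and 1, 14 without Egr2 array 2, 15 without Ptpn2 array 2). Labelled spleen (3) they were 6 after quantile normalization, 7 after cyclic loess, 21 with array weights, 11 with only the arrays compared, and 1 to 4 leaving out each array (1 without Ppp2r2d or Arhgap5 array 3). The interaction count (2) was 0 with the filter, quantile normalization, cyclic loess or only the arrays compared, 6 with array weights, 1 with the replicate block, and 0 to 7 leaving out each array. The replicate block moved no other count by more than 1.5 times. Within transductions Egr2 gave 23 with array weights, and Ptpn2 13 and LacZ 10 with only the arrays compared; leaving out each array gave 13 to 19 for Ppp2r2d, 13 to 20 for Egr2, 18 to 21 for Ptpn2, 16 to 20 for Arhgap5, 17 to 21 for Alk and 17 to 22 for LacZ, and 106 to 121 in all (113). The causes were not tested. Chac1, Slc7a11, Aldh1l2 and Cth had values near the lowest of the arrays, which leaves the size of their differences uncertain. The calls of Chac1, Aldh1l2 and Cth between the labels were nonetheless kept under the 45 other settings counted above.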
